A study of Mus musculus with 5 samples.

Results

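Interferon-stimulated genes were followed in dendritic cells of the mouse thymus before and after irradiation. The set was chosen by name and holds 37 genes, all of which were rows of a count table of 18051 genes and passed the filter on low counts. Untreated C57BL/6J mice aged 6 to 8 weeks gave 2 libraries, and mice of the same strain and age that had received total body irradiation (TBI) gave 3, on day 4. Per the labels, thymi were digested and pooled, and the sort kept CD11c+ MHC class II+ cells among CD45+ cells. Titles and tags give day 4, while the treatment note also carries another day label, so the day rests on the former. The radiation dose is not given in the sources used here. The labels do not say that libraries came from separate pools of mice, so p-values measure the spread between these libraries, which may be technical.

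Type I interferons (interferon-alpha and interferon-beta) signal through IFNAR1 and IFNAR2, the kinases JAK1 and TYK2, and a complex with STAT2 and IRF9 that binds the interferon-stimulated response element (ISRE). Interferon-gamma signals through IFNGR1 and IFNGR2 and the kinases JAK1 and JAK2, and leads to binding at the gamma-activated site (GAS). Thymic dendritic cells are known to express interferon-stimulated genes without infection. The members were sorted by textbook knowledge into 23 genes induced mainly by type I interferon, 5 immunity-related GTPases induced by interferon-gamma, and 9 genes induced by both. Many genes of the first 2 classes respond to either kind of interferon, so the classes are labels of the main inducer and not separate pathways.

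Libraries held 7227000 to 8428589 counts, and 1 count equalled 0.124 to 0.145 counts-per-million (CPM, on library sizes scaled by TMM, a trimmed mean of M-values). Markers of other myeloid cells and of lymphocytes shifted between the groups. Of 19 macrophage markers 16 were higher after TBI, and their summed level went from 5250 to 6407 CPM in the untreated libraries to 51803 to 56981 CPM. Of 16 plasmacytoid dendritic cell markers 13 were lower and 1 (Il3ra) was higher, with sums of 3601 to 3695 against 414 to 557 CPM, and 11 of 13 type 1 dendritic cell markers were lower, with sums of 7746 to 8196 against 2431 to 2807 CPM. Of 9 tested type 2 dendritic cell markers 6 were higher and 1 was lower (sums of 1584 to 1702 against 3572 to 4018 CPM), and 13 of 15 tested markers of natural killer and innate lymphoid cells were higher (274 to 275 against 1784 to 2237 CPM), with Klra8 at 0 counts in the untreated libraries. Of 16 T cell markers 1 was higher and 11 were lower (4004 to 4556 against 2227 to 2332 CPM). Monocyte markers gave 3 higher and 4 lower of 11 tested (2607 to 2682 against 4321 to 6805 CPM), and neutrophil markers 3 higher and 1 lower of 10 tested (55.4 and 439 against 502 to 772 CPM), with Mpo and Elane at 0 counts in every TBI library. In bulk RNA, fewer cells of a type and less RNA per cell cannot be told apart, and the part of these shifts in the results on interferon-stimulated genes was not tested.

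The members did not move as a block. Of the 37 genes, 16 (43.2%) were higher after TBI, 5 (13.5%) were lower and 16 did not pass an adjusted p of 0.05 in edgeR's quasi-likelihood test. Over all 12046 genes tested, 13.3% were called higher and 9.79% lower. The median log2 fold change of the members was 0.62, and that of all tested genes was -0.01. Groups did not overlap in CPM for 29 members, against 56.1% of all tested genes. The largest rises were those of Ifitm3, Ifitm2, Ifitm1 and Iigp1, and the falls were those of Ifi44, Stat2, Usp18, Bst2 and Trim30a. Without TBI replicate 3 the lower members numbered 3, and over all genes 1090 were lower instead of 1179. Leaving out either untreated library also reduced the lower calls, among the members and over all genes.

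**Figure D1:**
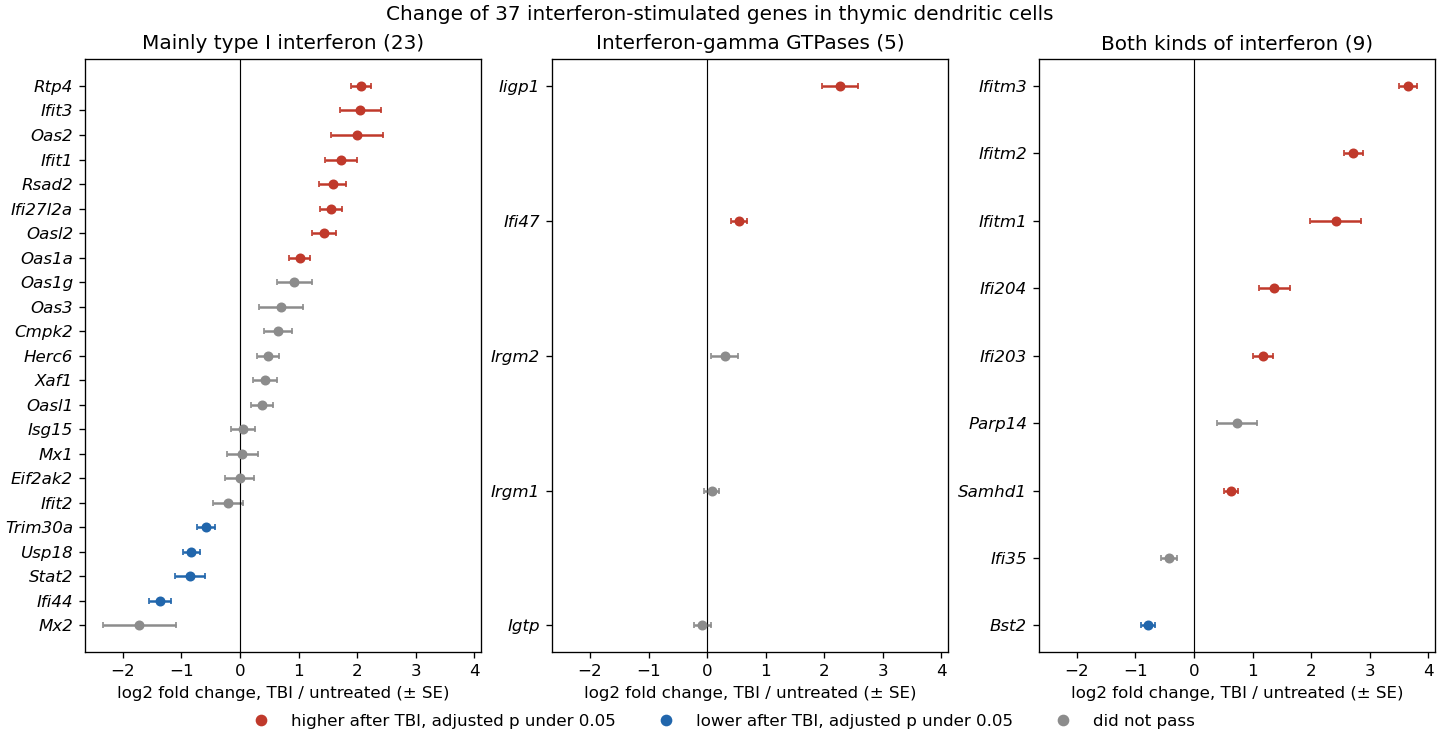
Log2 fold change of each member, TBI over untreated, with its standard error (horizontal bars), in 3 panels by the main inducer. Red points passed as higher, blue points passed as lower and grey points did not pass. In each panel genes at the top are well above 0 and genes at the bottom lie near or below it, with Ifitm3 at 3.66 and Ifi44 at -1.36.

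The ISRE and GAS were searched for in the members' promoters. RefSeq promoter windows on GRCm38.p6 (the build also called mm10), 250 bases before to 50 after the start, were at hand for 28 of the 37 members and for 27025 genes in all. The ISRE core, here GAAA, then 2 bases of any kind, then GAAA, on either strand, stood in the windows of 17 members (60.7%, 95% exact binomial interval 40.6 to 78.5%) and in 3.99% of all genes. The GAS core TTCNNNGAA, which reads the same on both strands, stood in 9 members (32.1%, 15.9 to 52.4%) and in 9.55% of all genes. Both intervals treat members as independent draws. Some members have like promoters, such as Igtp and Irgm2 below, so the intervals are too narrow for such genes. The ISRE core was found in 7 of 11 members that rose, in 3 of 4 that fell and in 7 of 13 that did not pass. By class it stood in 10 of 17 type I genes, 3 of 4 GTPases and 4 of 7 genes of both classes, and the GAS core in 3, 2 and 4 of them. The differences between classes were not tested. A match describes letters in a window and not a bound site. The stretch before the start is shown for 5 genes that rose, 3 that did not pass and 1 that fell, so that windows with like cores and unlike changes can be read side by side. Letters run 5′ to 3′ on the gene's strand, in lower case with ISRE and GAS cores in capitals. Stretches run from base -160 to base -1, the last before the start, except that bases in annotated exons were left out for Ifit1 (-145 to -19) and Ifitm2 (-160 to -27).
Ifit1 (rose, chr19:34640744-34640870, plus strand): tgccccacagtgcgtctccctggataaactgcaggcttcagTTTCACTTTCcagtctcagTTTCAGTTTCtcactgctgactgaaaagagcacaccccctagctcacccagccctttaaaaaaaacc
Ifit3 (rose, chr19:34583369-34583528, plus strand): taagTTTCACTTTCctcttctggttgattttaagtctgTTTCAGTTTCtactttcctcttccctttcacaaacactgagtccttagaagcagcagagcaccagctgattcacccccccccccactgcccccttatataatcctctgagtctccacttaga
Rsad2 (rose, chr12:26456453-26456612, minus strand): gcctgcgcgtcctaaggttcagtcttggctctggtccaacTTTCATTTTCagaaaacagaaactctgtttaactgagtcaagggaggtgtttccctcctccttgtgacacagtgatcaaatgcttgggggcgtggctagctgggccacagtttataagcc
Ifitm2 (rose, chr7:140955988-140956121, minus strand): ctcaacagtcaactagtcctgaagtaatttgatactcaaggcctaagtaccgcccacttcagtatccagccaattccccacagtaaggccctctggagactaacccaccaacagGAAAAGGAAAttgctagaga
Oas1a (rose, chr5:120907526-120907685, minus strand): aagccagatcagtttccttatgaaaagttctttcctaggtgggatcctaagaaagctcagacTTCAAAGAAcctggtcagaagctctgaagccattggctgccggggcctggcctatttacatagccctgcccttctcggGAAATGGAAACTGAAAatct
Isg15 (did not pass, chr4:156200819-156200978, minus strand): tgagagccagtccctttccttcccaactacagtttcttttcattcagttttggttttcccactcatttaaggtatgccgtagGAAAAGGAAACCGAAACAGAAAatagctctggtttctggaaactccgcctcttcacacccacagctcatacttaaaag
Igtp (did not pass, chr11:58199396-58199555, plus strand): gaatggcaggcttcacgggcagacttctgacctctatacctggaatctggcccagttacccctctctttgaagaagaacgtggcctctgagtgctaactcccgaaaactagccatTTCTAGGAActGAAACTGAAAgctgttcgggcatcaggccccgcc
Irgm2 (did not pass, chr11:58214817-58214976, plus strand): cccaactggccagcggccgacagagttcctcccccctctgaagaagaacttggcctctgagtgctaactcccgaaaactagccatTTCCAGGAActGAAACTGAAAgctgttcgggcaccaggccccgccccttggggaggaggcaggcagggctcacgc
Bst2 (fell, chr8:71537473-71537632, minus strand): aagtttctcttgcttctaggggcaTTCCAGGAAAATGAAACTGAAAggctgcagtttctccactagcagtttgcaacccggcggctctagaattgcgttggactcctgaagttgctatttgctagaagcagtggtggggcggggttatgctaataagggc

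Genes with like cores before their start differed in their change. Isg15, which did not pass, held 3 overlapping ISRE cores between bases -78 and -57, more than any other stretch shown. Ifit1 and Ifit3, which rose, each held 2 separate cores read on the opposite strand. Igtp and Irgm2 carried a GAS core followed closely by an ISRE core, at bases -45 to -25 and -75 to -55, and neither passed. Their stretches share most letters around these cores, so they are not separate cases. Bst2, which fell, carried a GAS core that overlaps the first of 2 overlapping ISRE cores, all at bases -136 to -115. In Ifitm3, the gene with the largest rise, 2 ISRE cores and a GAS core that overlaps the second lay after the start, at bases 3 to 29. Windows of Ifi44, Herc6, Oasl1, Oasl2, Cmpk2, Xaf1, Ifitm1 and Ifi47 held neither core.

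The IFIT proteins bind foreign RNA and block its translation, and their genes lie side by side on chromosome 19. Ifit1 stood at 16.9 and 14.3 CPM in the untreated libraries and at 40.2, 67.4 and 46.9 CPM after TBI, a 3.30-fold rise (log2 fold change 1.72 ± 0.27, SE; edgeR adjusted p = 0.00234). Ifit3 went from 16.3 and 7.47 CPM to 51.2, 58.6 and 38.7 CPM (log2 fold change 2.05 ± 0.35; adjusted p = 0.00372). The TBI libraries lay above both untreated libraries for each of these genes. The lower untreated value of Ifit3 was that of replicate 2, and without untreated replicate 1 its log2 fold change was 2.73, against 1.601 without untreated replicate 2 (adjusted p = 0.00247 and 0.0236). Ifit2, whose gene ends 7.11 kb before that of Ifit3, had 67.1 and 56.1 CPM untreated and 36.6, 68.3 and 56.1 CPM after TBI. Its groups overlapped and it did not pass (-0.20 ± 0.26; adjusted p = 0.627). Ifit3 has a near-identical copy, Ifit3b, with which it may share reads.

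Active OAS enzymes make 2-5 oligoadenylates when they meet double-stranded RNA and so switch on RNase L. The members here are genes of that family, and OAS-like ones need not have the activity. Of 6 members 3 rose (50%), 0 fell and 3 did not pass, against 13.3% higher and 9.79% lower over all genes. All 6 log2 fold changes were above 0, where the median of all tested genes was -0.01. As genes of 1 family, they are not independent observations. Oas1a went from 47.0 and 35.2 CPM to 80.6, 82.9 and 86.2 CPM (1.02 ± 0.18; adjusted p = 0.00430). Its call was lost without untreated replicate 2 (adjusted p = 0.0886). Oas2, the lowest member per kilobase of exon in untreated cells, went from 3.46 and 4.81 CPM to 9.41, 15.1 and 25.1 CPM, a 4.00-fold rise (SE 0.45 on the log2 scale; adjusted p = 0.0144). Without untreated replicate 1 or 2, Oas2 did not pass (adjusted p = 0.112 and 0.0571). Oasl2, an OAS-like gene, went from 39.3 and 32.8 CPM to 78.6, 103 and 112 CPM (1.44 ± 0.20; adjusted p = 0.00141). These 3 genes were higher in each TBI library than in either untreated library.

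The other OAS members did not pass, and all 6 were lowest in TBI replicate 1 among the TBI libraries. Oas1g had 10.3 and 9.24 CPM untreated and 12.7, 20.8 and 22.0 CPM after TBI (0.92 ± 0.30; adjusted p = 0.0582). Oas3 had 21.6 and 17.0 CPM untreated and 17.2, 31.9 and 45.0 CPM after TBI, so that its groups overlapped (0.70 ± 0.37; adjusted p = 0.217). Oasl1 had 62.4 and 63.2 CPM untreated and 64.4, 94.1 and 86.7 CPM after TBI (0.38 ± 0.19; adjusted p = 0.194). Without TBI replicate 1 all 3 passed, with adjusted p = 0.00425, 0.0103 and 0.00629. Oas1a and Oas1g are near-identical neighbours on chromosome 5, 8.64 kb apart, so reads could be shared between them.

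ISG15 is a ubiquitin-like protein that is attached to other proteins, HERC6 is its mouse ligase, and USP18 both removes it and blocks signalling from the type I receptor. None of these 3 genes rose, where 13.3% of all tested genes did. Isg15 had 56.5 and 40.0 CPM untreated and 52.4, 53.4 and 44.3 CPM after TBI, with all TBI libraries inside the untreated range (0.05 ± 0.20, and below 0 with library size alone; adjusted p = 0.880). Usp18 fell from 136 and 116 CPM to 76.8, 65.5 and 71.3 CPM (-0.83 ± 0.15; adjusted p = 0.00490), a call that was lost without untreated replicate 1 (adjusted p = 0.106). Herc6 had 34.8 and 34.2 CPM untreated and 41.2, 56.2 and 46.8 CPM after TBI (0.48 ± 0.20; adjusted p = 0.118), and passed without TBI replicate 1 (adjusted p = 0.0201).

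The antiviral effectors split. Rtp4, a chaperone of membrane receptors that limits flavivirus replication, went from 26.6 and 23.2 CPM to 111, 106 and 96.1 CPM, a 4.20-fold rise (2.07 ± 0.17; adjusted p = 7.21e-05). Rsad2, which encodes viperin, an enzyme that makes a chain-terminating nucleotide, went from 33.4 and 41.4 CPM to 103, 142 and 91.1 CPM (1.58 ± 0.23; adjusted p = 0.00154). Ifi27l2a, which encodes a small membrane protein, went from 140.0 and 137 CPM to 502, 365 and 355 CPM (1.56 ± 0.18; adjusted p = 5.07e-04). For these 3 genes every TBI library was above both untreated libraries, and each passed in all 14 alternative fits, which exclude the 2-fold threshold.

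Ifi44 and Trim30a moved the other way. Ifi44, which encodes a cytoplasmic interferon-induced protein, fell from 47.3 and 48.1 CPM to 17.4, 19.8 and 18.4 CPM, 2.57-fold lower (-1.36 ± 0.18; adjusted p = 0.00107), and it too passed in all 14 alternative fits. Trim30a, a RING-finger protein that limits Toll-like receptor signalling, fell from 171 and 164 CPM to 119, 122 and 93.2 CPM (-0.59 ± 0.15; adjusted p = 0.0268). Groups did not overlap for either gene, but Trim30a was not called without untreated replicate 1 (adjusted p = 0.215), untreated replicate 2 (0.166) or TBI replicate 3 (0.0501), or with the replicate number as a block (0.0766).

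The remaining 5 effectors did not pass. Mx1 and Mx2 are genes of a family of dynamin-like GTPases that trap viral nucleocapsids. In C57BL/6 mice the Mx1 gene is defective, so its transcript does not make the full protein, and neither transcript is read here as working protein. Mx1 had 15.6 and 13.4 CPM untreated and 11.1, 16.0 and 17.5 CPM after TBI (0.04 ± 0.27; adjusted p = 0.931), a value whose sign turned with upper quartile scaling, library size alone and the replicate block. Mx2 rested on 31 and 30 counts untreated and 4, 9 and 13 counts after TBI, without overlap (-1.72 ± 0.62; adjusted p = 0.0833). Cmpk2, a mitochondrial nucleotide kinase whose gene lies 12.8 kb from Rsad2 and on the other strand, had 19.2 and 23.4 CPM untreated and 28.7, 41.2 and 29.8 CPM after TBI (0.64 ± 0.24; adjusted p = 0.0909, and 0.0297 without TBI replicate 1). The apoptosis-related gene Xaf1 had a log2 fold change of 0.42 ± 0.20 (adjusted p = 0.178), and Eif2ak2, the double-stranded RNA kinase PKR, one of -0.00 ± 0.24 (adjusted p = 0.991), above 0 with the replicate block. STAT2, a transcription factor of the type I response, is the only member that carries the signal itself. Stat2 fell from 66.1 and 79.0 CPM to 26.8, 49.8 and 43.3 CPM (-0.86 ± 0.26; adjusted p = 0.0435). The groups did not overlap, and the call was lost without untreated replicate 1 (adjusted p = 0.124), untreated replicate 2 (0.283) or TBI replicate 3 (0.0876).

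Immunity-related GTPases coat the vacuoles of intracellular pathogens and are classical products of interferon-gamma. Iigp1, a GTPase loaded onto such vacuoles, went from 8.28 and 5.82 CPM to 30.7, 44.5 and 26.9 CPM, a 4.82-fold rise (2.27 ± 0.31; adjusted p = 0.00120) that passed in all 14 alternative fits. Ifi47 went from 87.4 and 84.8 CPM to 124, 123 and 130.0 CPM (0.54 ± 0.13; adjusted p = 0.0193). The 3 other members did not pass. Irgm1, a regulator of the family, had 118 and 115 CPM untreated and 121, 125 and 123 CPM after TBI (0.08 ± 0.13, and below 0 with library size alone; adjusted p = 0.707). Igtp, which encodes the regulator IRGM3, had 91.6 and 105 CPM untreated and 90.3, 97.4 and 90.9 CPM after TBI (-0.08 ± 0.14; adjusted p = 0.728), and Irgm2, another regulator, had 19.9 and 26.3 CPM untreated and 25.8, 26.1 and 33.6 CPM after TBI (0.30 ± 0.23; adjusted p = 0.393). Per kilobase of exon, Igtp, Ifi47 and Irgm1 were the most abundant of the family in untreated cells and Iigp1 the least. Ifi47 was not called with library size alone (adjusted p = 0.108), with the replicate number as a block (0.0639), or without untreated replicate 1 (0.192), untreated replicate 2 (0.234) or TBI replicate 2 (0.0527). Annotated exons of Igtp and Irgm2 overlap on 1 strand, as do those of Ifi47 and Olfr56, so their counts may not be independent.

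**Figure D2:**
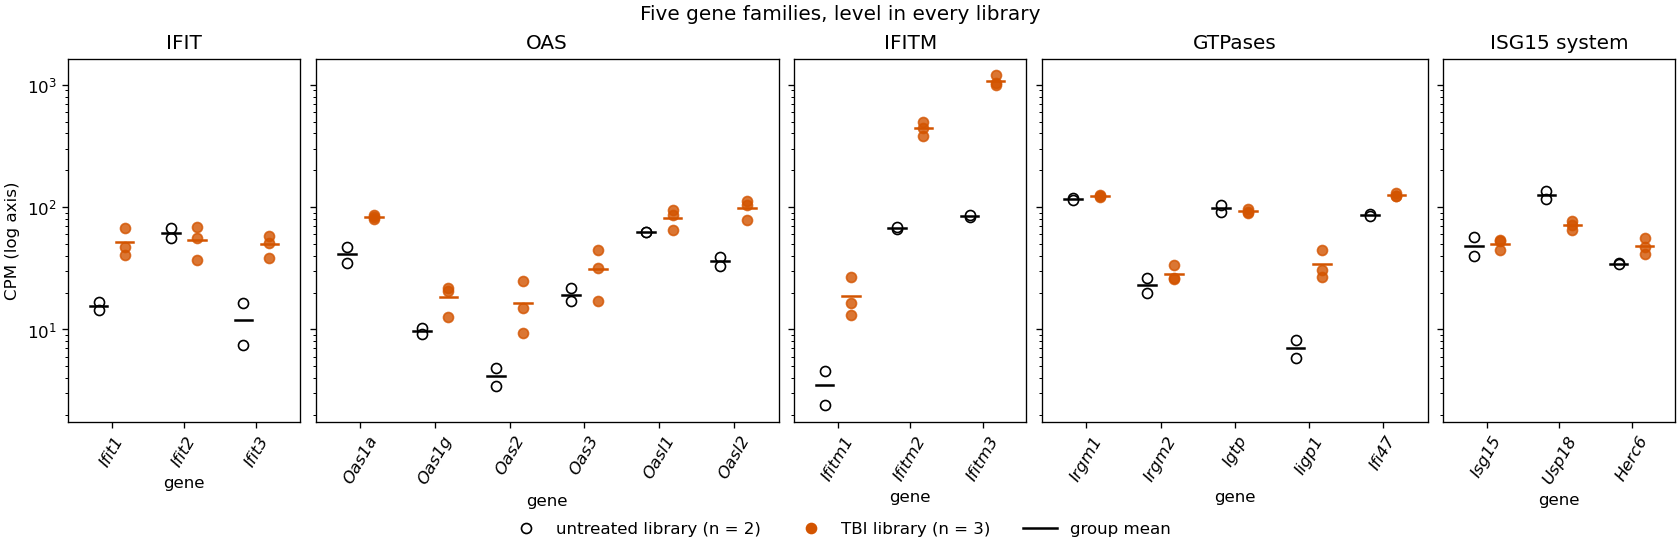
CPM on a log axis in every library for 5 gene families, with open circles for the 2 untreated libraries, filled circles for the 3 TBI libraries and short lines for group means. Within the IFIT, OAS and GTPase panels some genes separate by group and others do not, while all 3 IFITM genes separate.

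The IFITM proteins sit in membranes and hinder the fusion of viruses, and their genes gave the largest rises of the set. Ifitm3 went from 83.5 and 85.6 CPM to 1189, 1025 and 987 CPM, a 12.6-fold rise (3.66 ± 0.15; adjusted p = 3.53e-06). Ifitm2 went from 65.6 and 68.5 CPM to 499, 444 and 382 CPM, a 6.59-fold rise (2.72 ± 0.16; adjusted p = 1.71e-05). Ifitm1, on 37 and 19 untreated counts, went from 4.57 and 2.41 CPM to 26.9, 13.1 and 16.3 CPM (2.42 ± 0.43; adjusted p = 0.00479). All 3 lie close together on chromosome 7, and all passed in every one of 14 alternative fits. Ifitm2 and Ifitm3 are members of a family of close copies and may share reads. They are known to be abundant in monocytes and macrophages, and in the same libraries the summed macrophage markers rose from at most 6407 CPM to at least 51803 CPM. The part of that shift in the IFITM values was not tested.

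The other restriction factors and DNA sensors of the shared class also split. Bst2, or tetherin, holds budding virions at the cell surface and is a known marker of mouse plasmacytoid dendritic cells. It fell from 336 and 341 CPM to 195, 201 and 192 CPM (-0.79 ± 0.12; adjusted p = 0.00182) and passed in all 14 alternative fits, though its 1.73-fold fall is under the 2-fold threshold, in libraries where 13 of 16 plasmacytoid markers fell, and the median change of that list was -2.81 on the log2 scale. The part of that loss in the Bst2 value was not tested. Samhd1, which depletes the nucleotides used by retroviruses, went from 294 and 291 CPM to 445, 433 and 474 CPM (0.62 ± 0.12; adjusted p = 0.00661), and was not called without untreated replicate 1 (adjusted p = 0.0932) or 2 (0.103). Ifi203 and Ifi204 encode DNA-binding proteins of the HIN200 family. Ifi203 went from 26.6 and 28.5 CPM to 57.6, 64.6 and 64.2 CPM (1.17 ± 0.17; adjusted p = 0.00172), and Ifi204 from 39.0 and 36.3 CPM to 63.8, 116 and 113 CPM (1.37 ± 0.27; adjusted p = 0.00721, and 0.0599 without untreated replicate 2). Every TBI library was above both untreated libraries for Samhd1 and for each HIN200 gene, whose counts are uncertain because the family holds close copies and Ifi203 shares exons with Mndal. Parp14, an ADP-ribosyltransferase, had 12.7 and 13.5 CPM untreated and 13.02, 22.6 and 30.1 CPM after TBI (0.74 ± 0.35; adjusted p = 0.166, and 0.00874 without TBI replicate 1). Ifi35, a modulator of innate signalling, had 135 and 141 CPM untreated and 105, 108 and 95.1 CPM after TBI (-0.43 ± 0.13). It missed the threshold narrowly (adjusted p = 0.0515) and passed in 6 of 14 alternative fits. Its adjusted p was 0.0498 in edgeR with size factors of DESeq2's kind and 0.0112 without TBI replicate 1.

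Set by class, 8 of 23 mainly type I genes rose (34.8%), 4 fell and 11 did not pass, and their median log2 change was 0.48. Of the 5 interferon-gamma GTPases 2 rose (40%), 0 fell and 3 did not pass (median 0.30). Of the 9 genes of both classes 6 rose (66.7%), 1 fell and 2 did not pass (median 1.17). Against 13.3% higher and 9.79% lower over all genes, each class held a larger share of rises. The share of falls was also larger for type I genes (17.4%) and genes of both classes (11.1%), but not for the GTPases. The difference between the classes was not tested. The mean of log2(CPM + 1) over the type I genes was 5.04 and 4.92 in the untreated libraries and 5.30, 5.59 and 5.50 after TBI. Over the GTPases it was 5.50 and 5.51 against 6.03, 6.16 and 6.09, and over the genes of both classes 5.84 and 5.78 against 6.98, 7.03 and 7.06. In each class every TBI library had a higher mean than either untreated library, and TBI replicate 1 was the lowest of the TBI libraries. The means do not show a rise of every gene in a class. Among the GTPases the log2 change was 2.27 for Iigp1 and 0.54 for Ifi47, against 0.08 for Irgm1, 0.30 for Irgm2 and -0.08 for Igtp. Among genes of both classes it was 3.66, 2.72 and 2.42 for Ifitm3, Ifitm2 and Ifitm1, against -0.43 for Ifi35 and -0.79 for Bst2. Without TBI replicate 1, 13 type I genes rose instead of 8, and over all genes 2148 were higher instead of 1599. Ifi47 and Iigp1 were the GTPases that rose, and leaving out untreated replicate 1, untreated replicate 2 or TBI replicate 2 left 1.

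**Figure D3:**
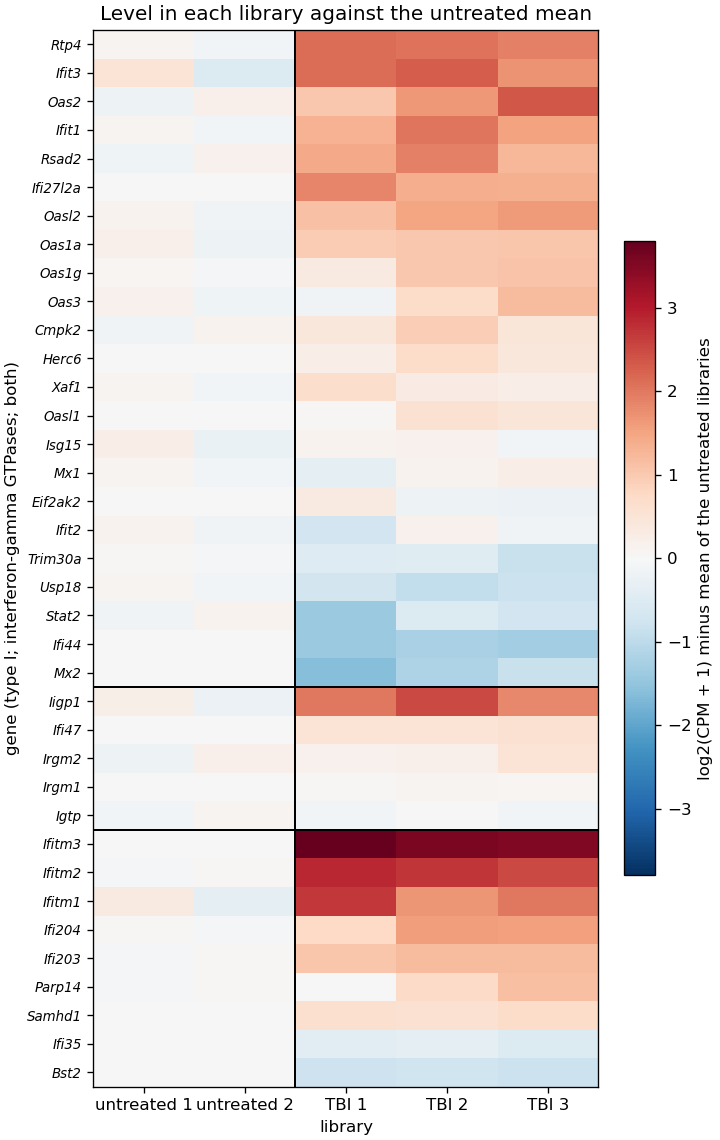
Log2(CPM + 1) of each member in each of the 5 libraries, minus the mean of the untreated libraries, in blocks for type I genes, interferon-gamma GTPases and genes of both classes. Red is above and blue below the untreated mean. The column of TBI replicate 1 is paler than the other TBI columns for Oas1g, Oas3, Oasl1 and Parp14.

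The TBI libraries differed among themselves in the members. Of the 37 members 20 (54.1%) were lowest in TBI replicate 1 among the TBI libraries, 4 in replicate 2 and 13 in replicate 3. Over all tested genes 39.9% were lowest in TBI replicate 1. For type I genes the figures were 14, 1 and 8 of 23. The widest spans between TBI libraries were those of Mx2 (2.94-fold, on few counts), Oas2 (2.67-fold), Oas3 (2.61-fold) and Parp14 (2.31-fold), and the narrowest was that of Irgm1 (1.03-fold). The median span was 1.41-fold for the members and 1.47-fold for all tested genes.

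Levels of different genes were compared per kilobase of exon. In untreated cells Bst2 (375), Ifi27l2a (299), Ifitm3 (125), Ifitm2 (102) and Ifi35 (79.9 CPM per kilobase) were the most abundant members. After TBI the order was Ifitm3 (1574), Ifi27l2a (879.7), Ifitm2 (675), Bst2 (217) and Isg15 (66.2 CPM per kilobase). Ifitm3 thus went from the third to the first place and Bst2 from the first to the fourth. The summed level of all members rose from 2359 and 2414 CPM to a range of 4243 to 4546 CPM. Most of that rise lay in Ifitm3, Ifitm2 and Ifi27l2a. Their mean levels went from 84.5, 67.0 and 139 CPM to 1067, 442 and 407 CPM, while 16 members did not pass and 5 fell. Oas2, Mx2, Iigp1 and Parp14 were the lowest in untreated cells, between 0.929 and 1.41 CPM per kilobase.

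**Figure D4:**
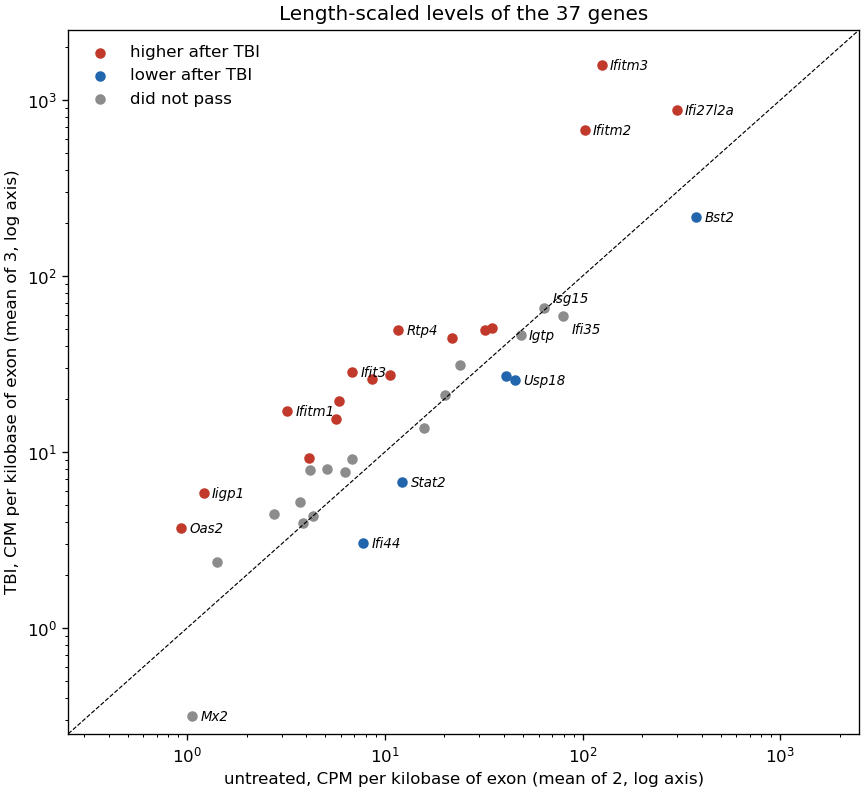
Mean level of each member in CPM per kilobase of exon, untreated (horizontal) against TBI (vertical), on log axes, with the dashed line for equal levels. Red points rose, blue points fell and grey points did not pass. Ifitm3, Ifi27l2a and Ifitm2 stand apart at the top, and Bst2, Usp18, Stat2 and Ifi44 lie below the line.

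Genes that carry the signal were read beside all tested genes, of which 13.3% were higher and 9.79% lower. Of 21 interferon genes looked for, 7 were in the count table, so the others could not be seen. The type I genes among the 7 were near 0. Ifnb1 had 0 and 4 untreated counts and 0, 0 and 1 after TBI, Ifna1 had 0 counts in every library, and Ifna2 had 1 count in all. Ifnk had 1 and 0 untreated counts and 0, 0 and 6 after TBI. Of 7 interferon genes in the table only Ifng, the interferon-gamma gene, was high enough to test, with 11 and 20 counts untreated and 31, 26 and 107 after TBI (1.89 ± 0.72; adjusted p = 0.0951). The highest Ifng count was in TBI replicate 3, and Ifng passed under DESeq2 (adjusted p = 0.0481) and without TBI replicate 1 (0.0465). The natural killer markers, of cells known to make interferon-gamma, were higher in the same TBI libraries, and their part in the Ifng count was not tested. Ifnl3, a type III interferon gene, had 48 counts in untreated replicate 1 and 0 in each other library, and Ifnl2, another, had 32 and 3 untreated counts and 0 in each TBI library.

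Of 6 receptor genes 2 rose (33.3%), 1 fell (16.7%) and 3 did not pass, against 13.3% higher and 9.79% lower over all genes. Ifngr1, the ligand-binding chain for interferon-gamma, went from 535 and 568 CPM to 823, 872 and 926 CPM (0.66 ± 0.12; adjusted p = 0.00473, and 0.0799 without untreated replicate 1). Il10rb, a chain of the interferon-lambda and interleukin-10 receptors, went from 110.2 and 102 CPM to 169, 215 and 218 CPM (0.92 ± 0.16; adjusted p = 0.00401, and 0.0657 without untreated replicate 2). Ifnlr1, the specific chain for interferon-lambda, fell from 34 counts in each untreated library to 0, 0 and 1 counts (adjusted p = 0.00253). Neither chain of the type I receptor passed. Ifnar1 had a log2 fold change of -0.53 ± 0.24 (adjusted p = 0.162, and 0.0245 with the replicate number as a block) and Ifnar2 one of -0.08 ± 0.14 (adjusted p = 0.716). Ifngr2, the second chain for interferon-gamma, had one of -0.28 ± 0.13 (adjusted p = 0.161). Without TBI replicate 1 the fall of Ifnar1 was smaller (-0.29) and passed (adjusted p = 0.0418).

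Among kinases and interferon regulatory factors, Jak2 (-0.92 ± 0.15; adjusted p = 0.00309) and Tyk2 (-0.61 ± 0.18; adjusted p = 0.0393) were lower, Tyk2 not when either untreated library (adjusted p = 0.211 and 0.208) or TBI replicate 2 (0.114) was left out. Irf9 (-0.35 ± 0.16; adjusted p = 0.166), Irf1 (-0.17 ± 0.16; adjusted p = 0.503) and Irf7 (-0.41 ± 0.17; adjusted p = 0.119) did not pass. With library size alone, which moved the median of all tested genes to -0.23, Irf9, Irf7 and the receptor gene Ifngr2 passed as lower (adjusted p = 0.0368, 0.0322 and 0.0243). Among 7 inhibitors 2 rose (28.6%) and 2 fell (28.6%), against 13.3% higher and 9.79% lower over all genes. Socs3 rose from 197 and 163 CPM to 543, 549 and 626 CPM (1.67 ± 0.15; adjusted p = 1.09e-04). Irf2, a repressor at the ISRE, rose too (0.92 ± 0.18; adjusted p = 0.00691). Socs1, the main brake on interferon-gamma signalling, fell (-0.70 ± 0.19; adjusted p = 0.0296), as did the phosphatase gene Ptpn6 (-0.42 ± 0.11; adjusted p = 0.0295). Irf2 was not called without untreated replicate 2 (adjusted p = 0.123), and Socs1 and Ptpn6 were not called when either untreated library or TBI replicate 2 was left out, nor Socs1 without TBI replicate 3 (0.0617) and Ptpn6 with the replicate block (0.0611).

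Other inducible genes also included rises and falls. Their lists are labels too, and genes such as Cxcl10 can respond to either kind of interferon. Of 36 further type I inducible genes 10 (27.8%) rose, 2 (Trex1 and Ube2l6, 5.56%) fell and 24 did not pass (median log2 change -0.08). Over all genes tested, 13.3% were higher and 9.79% lower. Those that rose included the chemokine Cxcl10 (1.79 ± 0.17), the helicase-like Ddx60 (1.98 ± 0.27), the secreted glycoprotein gene Lgals3bp (0.84 ± 0.16) and Phf11d (1.14 ± 0.21). Ube2l6 encodes the conjugating enzyme for ISG15, and Uba7, the activating enzyme gene of the same pathway, did not pass (-0.44 ± 0.17; adjusted p = 0.105). Of 29 tested interferon-gamma inducible genes outside the set 11 (37.9%) rose and 7 (24.1%) fell (median 0.18), against the same 13.3% and 9.79%. The guanylate-binding protein genes Gbp3 (2.52 ± 0.16) and Gbp7 (2.19 ± 0.18), the adhesion molecule Icam1 (1.39 ± 0.12) and the Fc receptor Fcgr1 (3.05 ± 0.23), itself a macrophage marker, rose. The genes that fell were Gbp8, the chemokine Cxcl9, the MHC class II activator Ciita, and Psmb9, Tap1, Tap2 and Tapbp, which cut, carry or load peptides for MHC class I. Lgals3bp and Phf11d were not called without untreated replicate 2 (adjusted p = 0.0815 and 0.108).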

How the data were processed

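RNA of sorted thymic dendritic cells was sequenced from a SMART-Seq v4 library kit, per the labels. Alignment to mm10 used STAR 2.5.2a and counting used featureCounts 1.6.0 of Subread, per the submitters' processing notes. The authors deposited raw counts per gene symbol. The annotation, strand setting and treatment of multiply mapped reads are not given in the sources used here. The kit adds no molecular identifiers, so reads are not independent molecules. The table held 0 columns of other samples, and 23 symbols had become dates (0.221% of counts), which stayed in the fit.

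The whole table of deposited counts was fitted in edgeR 4.0.16 (R 4.3.3): TMM scaling, filterByExpr (minimum count 10, minimum total 15), a quasi-likelihood F-test with the group as the only term, and Benjamini-Hochberg adjustment over 12046 genes at 0.05. Fold changes are TBI over untreated, with SE. CPM use TMM-scaled sizes, and exon lengths and positions come from GENCODE M21 (GRCm38). Promoters are RefSeq's (GRCm38.p6). Functions were tested on simulated data. Members, classes and lists were chosen with earlier results of these data known. All 37 members are described. From the other lists, all receptors, Irf9, Irf1 and Irf7 are named, with up to 4 genes per list past the threshold with the smallest p, and others named because few moved or as examples were chosen after their values were seen. Some results on signalling genes are not reported here. Alternatives were DESeq2 1.42.0 (Wald test), limma-voom (limma 3.58.1) and edgeR with other settings. In edgeR, scaling was by size factors of DESeq2's kind (edgeR's relative log expression), by upper quartile or by library size alone. Filtering was left out or made stricter (1 CPM in 3 libraries and 100 counts in all). Further edgeR fits used robust shrinkage or a replicate block, or omitted 1 library in turn. All alternatives made 14 fits, beside a 2-fold threshold on the counts of calls. A fit that omits an untreated library leaves 1, whose spread is taken to equal that among TBI libraries. With the replicate block the group effect rests on replicates 1 and 2 of each group, because only TBI has a replicate 3. Figures were drawn with matplotlib 3.10.9.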

Additional observations from a re-analysis of the deposited data

How the results depend on the processing

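Of 517 refits of single members, 470 kept the direction and the side of the threshold, 19 lost a call, 13 gained one and 15 changed sign, all of the last in genes that did not pass in either fit. With library size alone Isg15 turned to -0.18 and Irgm1 to -0.15. With a library left out, the log2 fold change ran from -0.17 to 0.32 for Isg15, from -0.41 to 0.015 for Ifit2, from -0.087 to 0.21 for Mx1, from -0.22 to 0.10 for Eif2ak2 and from -0.17 to 0.020 for Igtp. Mx1 was at -0.0055 with upper quartile scaling, -0.18 with library size alone and -0.11 with the replicate block, and Eif2ak2 at 0.078 with the replicate block. The cause of these turns was not tested. With a library left out, 11 to 22 members were higher and 2 to 6 lower, 6 to 13 type I genes were higher and 1 to 4 lower, 1 or 2 GTPases were higher, and 1 or 2 genes of both classes were lower. Over all genes those fits gave 810 to 2148 higher and 423 to 1780 lower. At a 2-fold threshold 1 member was lower, which was 1 type I gene, 1 GTPase was higher, 0 genes of both classes were lower, and 743 of all genes were lower. With library size alone 1 GTPase was higher, 2129 genes were lower, and the medians were 0.25 for type I genes and 0.080 for GTPases, where the median of all tested genes was -0.23. The GTPase median ran from 0.11 to 0.52 with a library left out. Genes of both classes that were lower numbered 2 with the stricter filter, size factors of DESeq2's kind, DESeq2's Wald test, and scaling by upper quartile or library size alone. With an ISRE core that ends in a further C, 39.3% of members and 0.944% of all genes held a match. The labels do not say what replicate numbers share. Deviations of same-numbered libraries correlated at -0.0139 and -0.0110 over 12046 genes, and with the replicate block 1 GTPase was higher, 15 members were higher and 4 lower. Mx2 had too few counts for the stricter filter, so that fit gave it no value.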
